A study of Mus musculus with 45 samples.

Results

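The response of heterozygous ΔG mouse embryonic stem cells (ESCs) to retinoic acid (RA) was taken from 6 of the 24 RNA-seq samples of the series, which holds 45 samples in all. They are the 3 RA and the 3 ES samples labelled G and het, compared over every gene whose values vary. The series was made to study the long non-coding RNA gene 5430416N02Rik in ESCs, and the samples were also collected under RA so that the knockout cells could be profiled after differentiation. By the study's culture methods the cells are D3 mouse ESCs, a line from a 129 strain embryo. In all 6 samples, 1 allele of 5430416N02Rik has its gene body replaced by a GFP-IRES-Puro cassette while its promoter is kept. The ES samples were given DMSO and the RA samples 2 μM RA, in both cases for 48 h. The controls therefore carry the same deletion as the treated cells. The study worked with several clones of each genotype, and which of them, and how many, make up the 3 samples of a group is not given in the sources used here. The cells were kept on gelatin with LIF and without feeder cells, and whether LIF stayed in the medium during the RA treatment is likewise not given, so RA and a possible change of LIF cannot be told apart.

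RA is made from vitamin A and enters the nucleus, where it binds RA receptors that sit on DNA as pairs with retinoid X receptors. The bound pair switches on nearby genes, among them the enzymes that break RA down and the anterior members of the Hox clusters. In ESCs, RA ends self-renewal, and the cells can take on neural or extraembryonic endoderm fates depending on how they are cultured.

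Values are regularized log (rlog) values as deposited, on the log2 scale, so that a difference of 1 corresponds to a 2-fold change. The transformation shrinks the values of weakly read genes, whose changes are therefore understated. Differences are given as RA minus ES with the standard error (SE) and the adjusted p of limma (Benjamini-Hochberg over 22048 genes, n = 3 samples per group). A gene was called at an adjusted p under 0.1 and an absolute difference over 0.5. A gene tested alone by exact permutation could not go below p = 0.1 with these groups.

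The targeted gene was the first check of the labels. 5430416N02Rik (chr5:100849861-100858535, minus strand, NCBIM37, annotated as a lincRNA) had rlog values of 5.58, 5.54 and 5.50 in the ES samples and 5.64, 5.52 and 5.58 in the RA samples. The groups overlapped and the difference was 0.04 (SE 0.09, adjusted p = 0.78). Its sign turned when all samples were brought to the same distribution (quantile normalization, -0.20, adjusted p = 0.0231). In the homozygous ΔG samples, where both alleles are replaced, the means were 2.75 in ES and 2.83 in RA. Mid1, a microtubule-associated ubiquitin ligase that the study links to this locus, had a difference of 0.07 (adjusted p = 0.387), and its sign turned when the sample medians were made equal. The neighbouring genes Lin54, a DNA-binding subunit of the MuvB complex, and Sec31a, a coat protein of secretory vesicles, had differences of -0.18 (adjusted p = 0.122) and 0.09 (adjusted p = 0.263).

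RA changed the level of 6499 of 22048 genes (29.5%). Of these, 3911 genes were higher (17.7% of the genes tested) and 2588 were lower (11.7%). The samples of the groups did not overlap for 6490 of the 6499 called genes (99.9%), while 12013 of all genes tested (54.5%) did not overlap, 6885 with RA above ES in every sample (31.2%) and 5128 with RA below (23.3%). By more than 2 on the log2 scale, 725 genes changed (3.29%), of which 502 rose (2.28%) and 223 fell (1.01%). The share of calls that were rises was 60.2% and depended on the scaling, since quantile normalization gave 3034 rises and 3292 falls (48%). Samples of a group correlated at 0.9987 to 0.9990 over all 22048 genes tested, and samples of different groups at 0.9800 to 0.9808. The first principal component separated ES from RA and held 92.64% of the variance. In these bulk samples, fewer cells of a type and less RNA per cell cannot be told apart.

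**Figure D1:**
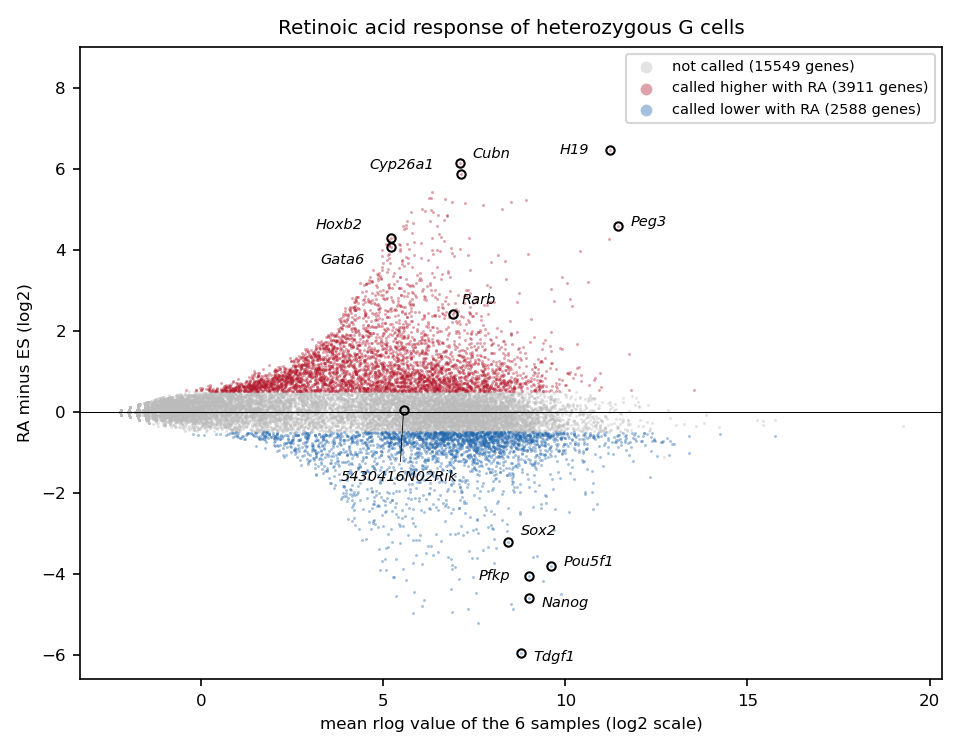
Difference between RA and ES (RA minus ES, log2) against the mean rlog value of the 6 heterozygous ΔG samples, 1 point per gene, with called genes in red (higher) and blue (lower). Rises by more than 4 lie at mean values between about 5 and 12, Tdgf1 has the largest fall at -5.95, and 5430416N02Rik lies near 0.

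The share of genes called depended on the level of the gene. Between mean rlog values of 3 and 6, 37.7% of genes were called higher and 15.6% lower. Above a mean of 9 the order turned, with 10.4% higher and 32.6% lower. At a mean of 0 or below, 0.0639% were higher and 0.032% lower, which is where the transformation leaves little room for a difference. Counts of the gene lists below stand beside these shares and those of all genes, 17.7% higher and 11.7% lower. Lists can share genes, so their counts are not separate results.

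Among the largest rises were genes of RA breakdown, of the extracellular matrix and of simple epithelium. H19, an imprinted non-coding RNA (chr7:149761434-149764048, minus strand, NCBIM37), had rlog values of 7.89, 7.95 and 8.12 in ES and 14.46, 14.47 and 14.44 in RA. The difference of 6.47 (SE 0.05, adjusted p = 2.6e-17) was the largest rise of all genes. Cubn encodes cubilin, an endocytic receptor of absorptive epithelia and visceral endoderm. It was at 3.83, 4.13 and 4.14 in ES and at 10.13, 10.19 and 10.22 in RA, a difference of 6.15 (SE 0.09, adjusted p = 1.39e-14). Collagen and laminin chains of the basement membrane followed, with rises of 5.22 for Col4a1, 5.17 for Lamb1 and 5.10 for Col4a2. The type I collagen chain Col1a2 rose by 5.43, the gelatinase Mmp2 by 4.97, the actin-binding protein Tagln by 5.00 and the keratin Krt18 by 5.01. Further rises were found for Igfbp5 (5.28), a binding protein of insulin-like growth factors, for Cyp1b1 (5.27), a cytochrome P450, for Gas1 (5.15), a Hedgehog co-receptor, and for Pmp22 (5.18), a membrane protein of myelin.

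The largest falls were led by genes of the undifferentiated state. Tdgf1 encodes Cripto, a co-receptor of Nodal (chr9:110842114-110848662, minus strand, NCBIM37). Its values were 11.73, 11.72 and 11.80 in ES and 5.80, 6.09 and 5.51 in RA, a difference of -5.95 (SE 0.11, adjusted p = 6.38e-14). Tdh, threonine dehydrogenase, fell by 5.20, the orphan nuclear receptors Esrrb and Nr0b1 by 4.88 and 4.64, the growth factor Fgf4 by 4.88, and the transcription factors Nanog and Tcfcp2l1 by 4.61 and 4.51. Genes better known from other tissues fell with them. These were the cation channel Trpm1 (-4.98), the septin Sept1 (-4.95), the muscle genes Myh13 (-4.79) and Mylpf (-4.39), the junction protein Jam2 (-4.76), nephrin, encoded by Nphs1 (-4.54), the water channel Aqp3 (-4.47), and Lrrc34 (-4.46). In none of these 30 genes did the ES and RA samples overlap, which the choice of the genes required.

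**Figure D2:**
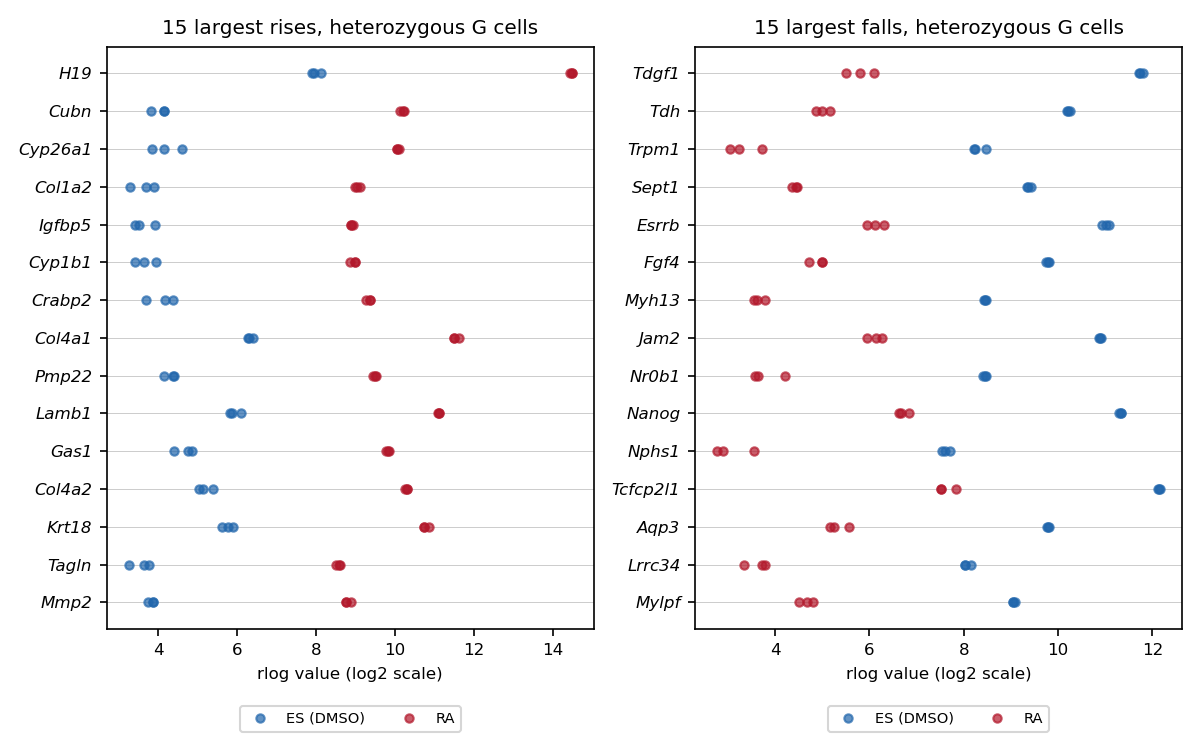
rlog values (log2 scale) of the 15 genes with the largest rises (left) and the 15 with the largest falls (right) in the 3 ES (blue) and 3 RA (red) samples of heterozygous ΔG cells, 1 point per sample. The groups are far apart in every gene, H19 goes from about 8 to over 14, and Tdgf1 from over 11 to 5.51 to 6.09.

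All 6 retinoid receptor genes changed, 5 upward and 1 downward. The RA receptor Rarb, itself a known RA target, was at 5.70, 5.75 and 5.72 in ES and at 8.05, 8.17 and 8.19 in RA (difference 2.41, SE 0.08, adjusted p = 1.27e-11). Rxra, the retinoid X receptor that pairs with it, went from 5.78, 5.76 and 5.81 to 8.10, 8.13 and 8.14, a difference of 2.34. Rarg, a further RA receptor, fell. Its values were 8.09, 8.11 and 8.23 in ES and 6.35, 6.46 and 6.58 in RA, a difference of -1.68 (SE 0.08, adjusted p = 7.73e-10). The remaining receptors had smaller rises of 0.80 (Rxrg), 0.75 (Rxrb) and 0.53 (Rara). Rxrg was at low values, with means of 0.61 in ES and 1.40 in RA. When the trend with GC content was removed, 2 receptor genes stayed called higher of the 5 receptor genes that this fit kept, and Rara and Rxrb lost their calls. Rara also fell under the limit without ES replicate 3 (0.41) or RA replicate 3 (0.48). The median over the receptors was 0.77, against 0.04 over all genes tested.

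Of 18 genes for retinoid metabolism and transport, 12 rose, none fell and 6 were not called (median 1.34). Genes for RA breakdown and RA binding rose most. Cyp26a1 (chr19:37772298-37776018, plus strand, NCBIM37) was at 3.84, 4.14 and 4.59 in ES and at 10.05, 10.05 and 10.10 in RA, a difference of 5.88 (SE 0.14, adjusted p = 1.13e-12). Cyp26b1, which oxidises RA as well, was at 3.34, 3.55 and 4.10 in ES and at 8.66, 8.61 and 8.60 in RA (4.96, SE 0.15). Cyp26c1, the remaining enzyme of this family, was not called (-0.01, adjusted p = 0.964) and lay under 0 in all samples. The ES samples of Cyp26a1 and Cyp26b1 were more widely spread than the RA samples. Crabp2 encodes the protein that hands RA to its receptors. It went from 3.70, 4.38 and 4.18 to 9.37, 9.27 and 9.36, a difference of 5.25 (SE 0.14, adjusted p = 2.36e-12). Stra6, the cellular importer of vitamin A, rose by 4.42 and Dhrs3, which returns retinaldehyde to retinol, by 3.00. Crabp1, a further RA-binding protein, rose by 2.02 and Rdh10, which makes retinaldehyde, by 1.10.

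The start sites of the called receptor, metabolism and Hox genes were searched for the sequence that RA receptor pairs are known to bind, a direct repeat of a half-site. The half-site was AGGTCA, with the variants of its letters written as GGTTCA, then as AGTTCA, and then as GGGTCA, in any combination, spaced by 1, 2 or 5 bases of any kind, on both strands, and overlapping matches were counted once per gene. RefSeq windows of GRCm38.p6 from 250 bases before to 50 bases after the start were at hand for 6 of 6 receptor genes, 8 of 12 metabolism genes and 14 of 27 Hox genes. A repeat was found in 1 receptor gene, 1 metabolism gene and 0 Hox genes, in both cases with a spacing of 5. Both windows are shown because they carry this repeat, which is in capitals, with the strand of the gene read 5′ to 3′.
Rarb: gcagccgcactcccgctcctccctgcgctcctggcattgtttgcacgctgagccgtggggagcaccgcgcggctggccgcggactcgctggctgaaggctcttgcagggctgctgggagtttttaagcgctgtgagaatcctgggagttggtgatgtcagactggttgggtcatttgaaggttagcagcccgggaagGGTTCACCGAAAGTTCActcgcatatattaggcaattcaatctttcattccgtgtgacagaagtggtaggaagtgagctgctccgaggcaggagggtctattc
Cyp26a1: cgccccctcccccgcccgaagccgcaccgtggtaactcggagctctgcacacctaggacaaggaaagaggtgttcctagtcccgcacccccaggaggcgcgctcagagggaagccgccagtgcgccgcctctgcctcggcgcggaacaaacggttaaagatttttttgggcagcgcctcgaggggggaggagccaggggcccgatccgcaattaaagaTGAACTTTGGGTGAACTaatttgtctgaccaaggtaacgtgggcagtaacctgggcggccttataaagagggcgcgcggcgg
The Rarb window is chr14:16575427-16575726 (minus strand) and its repeat, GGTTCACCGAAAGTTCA, spans positions -53 to -37 from the start. The Cyp26a1 window is chr19:37697558-37697857 (plus strand) and its repeat lies at -32 to -16 on the opposite strand, so that the gene's own strand reads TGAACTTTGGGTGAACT. Over all 27025 genes with a window, 0.688% held any such repeat and 0.115% one with a spacing of 5. Among the genes tested here with a window, a spacing of 5 was found in 3 of 2707 genes called higher (0.111%), 1 of 1743 called lower (0.0574%) and 4 of 8428 not called (0.0475%). With any of the spacings the shares were 0.406%, 0.459% and 0.475% in the same order, against 0.458% of all 12878 tested genes with a window. A match describes the letters in the window and does not show that a receptor was bound there.

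Genes listed as induced by RA in other cells behaved mostly alike, with 20 of 28 higher, 1 lower and 7 not called (median 1.33). Meis1, a homeodomain protein that binds DNA together with Hox proteins, rose by 4.74. It was at 4.41, 4.14 and 4.37 in ES and at 9.05, 9.10 and 8.99 in RA. Meis2, its relative, rose by 2.72. The zinc finger genes Tshz1 and Zfp703 rose by 4.32 and 3.22, the orphan receptor Nr2f2 by 2.75 and the receptor corepressor Nrip1 by 2.43. Stra8, which germ cells need to enter meiosis, was at 7.23, 7.26 and 7.30 in ES and at 8.81, 8.77 and 8.57 in RA, a difference of 1.45 (SE 0.07, adjusted p = 1.07e-09). The member that fell was Cdx1, a caudal homeobox gene, with values of 8.27, 8.28 and 8.16 in ES and 4.84, 4.64 and 4.85 in RA (-3.46, SE 0.09, adjusted p = 2.17e-12). Cdx1 is known as an RA target in the embryo, and here it was more than 10-fold lower.

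Hox genes, which set positional identity along the body axis, were called higher in 26 of 39 cases and lower in 1, with a median difference of 0.92. Of 27 genes in paralogue groups 1 to 9, 25 rose and none fell, while of 12 genes in groups 10 to 13, 1 rose (Hoxb13) and 1 fell (Hoxc12, -0.96, from a low level). Of the 12 genes of groups 10 to 13, 8 had a mean rlog under 3 and 4 of these lay under 0, where 0.0639% of all genes were called higher. Of the 27 genes of groups 1 to 9, 9 had a mean under 3 and 0 lay under 0. All 10 Hoxb genes were called higher, with a median of 2.39, against 7 of 11 in Hoxa, 5 of 9 in Hoxc and 4 of 9 in Hoxd. Hoxb2 changed most. It was at 2.88, 3.05 and 3.25 in ES and at 7.34, 7.37 and 7.33 in RA, a difference of 4.29 (SE 0.11, adjusted p = 2.7e-12). Hoxb1, the anterior end of that cluster, went from 2.91, 3.06 and 3.11 to 6.15, 6.24 and 6.22 (3.18, SE 0.11). No ES sample reached any RA sample in these genes. Hoxb3, Hoxa5, Hoxb6, Hoxb9 and Hoxb4 rose by 2.77, 2.74, 2.49, 2.40 and 2.38, and the middle Hoxc genes Hoxc8 and Hoxc9 with 2.00 and 1.84. Hoxd1 rose by 1.12 from values near 2.

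**Figure D3:**
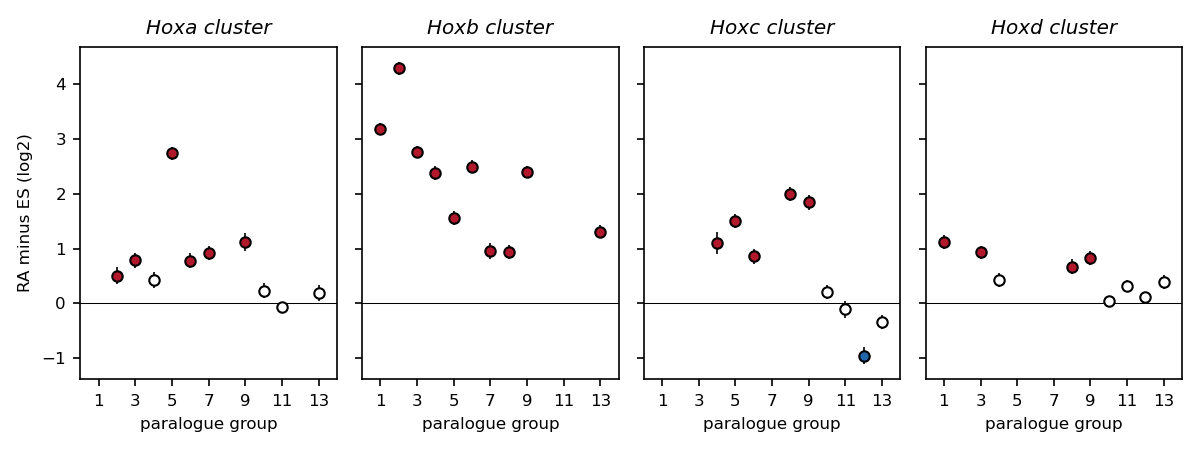
Difference between RA and ES (RA minus ES, log2, with its SE) for the Hox genes shown, by cluster and paralogue group in heterozygous ΔG cells (3 samples per group). Filled red points are called higher, the blue point (Hoxc12) is called lower and open points are not called, and the tallest point is Hoxb2 at 4.29.

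Pluripotency factors fell almost throughout. Of 33 genes, 26 were lower, 2 were higher and 5 were not called, with a median of -2.95. Pou5f1, which encodes Oct4, was at 11.53, 11.51 and 11.48 in ES and at 7.62, 7.70 and 7.77 in RA (-3.81, SE 0.05, adjusted p = 2.92e-15). Sox2, its binding partner, went from 10.04, 10.08 and 10.01 to 6.67, 6.90 and 6.94 (-3.21, SE 0.07). For Nanog the values were 11.33, 11.32 and 11.28 in ES against 6.66, 6.83 and 6.62 in RA (-4.61, SE 0.06, adjusted p = 3.43e-15). Klf4, the Krüppel-like factor whose RNA partners the study set out from, went from 8.55, 8.59 and 8.48 to 5.66, 5.79 and 5.72 (-2.82, SE 0.07). The defining markers of undifferentiated ESCs were thus high in all ES samples, and no RA sample came near them. Prdm14, Klf2 and Zfp42, factors of the naive state, fell by 3.91, 3.83 and 3.56. Lin28a and Lin28b, which block the maturation of let-7 microRNAs, moved the other way. Lin28a went from 8.58, 8.69 and 8.47 to 10.14, 10.16 and 10.04 (1.54), and Lin28b from 5.18, 5.43 and 5.56 to 7.79, 7.94 and 7.77 (2.44).

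The LIF pathway, which holds mouse ESCs in self-renewal through Stat3, gave 6 falls and 3 rises among 13 genes (median -0.47). The lowest value of this list, -4.51, was that of Tcfcp2l1, which is also counted among the pluripotency factors. The feedback inhibitor of the pathway, Socs3, was at 8.50, 8.41 and 8.61 in ES and at 6.00, 5.82 and 6.17 in RA, a difference of -2.51. Stat3 itself fell by 0.76, whereas the receptor gene Lifr rose by 0.61. Among 15 genes of the formative and primed states, 7 rose and 5 fell (median 0.38). Sox4 (3.86) and the N-cadherin gene Cdh2 (3.57) rose most, Fgf5, a marker of the epiblast, rose by 1.57, and Foxd3 and Otx2 fell by 2.29 and 0.66.

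Markers of extraembryonic endoderm, the lineage that lines the yolk sac, rose in 20 of 27 genes, with 3 lower and 4 not called (median 2.27). The endoderm transcription factor Gata6 was at 3.13, 3.19 and 3.25 in ES and at 7.14, 7.19 and 7.42 in RA, a difference of 4.06 (SE 0.11, adjusted p = 3.07e-12). Gata4 went from 3.10, 3.37 and 3.43 to 6.48, 6.62 and 6.65 (3.28, SE 0.12). Sox17, Sox7 and Foxa2, factors of the same lineage, rose by 2.52, 2.27 and 1.89. Other members of the list rose as well. These include the protease Plat (4.85), the endocytic adaptor Dab2 (4.62), which works with cubilin, and the growth factor receptor Pdgfra (4.39). The carrier protein Ttr rose by 2.39 and the fetal serum protein Afp by 0.84, from 1.66, 1.69 and 1.70 to 2.47, 2.43 and 2.68. Hnf4a, a later factor of visceral endoderm, was not called (-0.16, adjusted p = 0.329). Apoe, a lipoprotein gene, had the largest of the 3 falls on the list, at -2.04.

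Basement membrane genes rose in 12 of 18 cases and fell in 1 (median 1.25). Col4a1 was at 6.39, 6.29 and 6.26 in ES and at 11.50, 11.49 and 11.61 in RA (SE 0.06, adjusted p = 8.12e-16). The laminin chain Lama1 rose by 2.62 and Lamc1 by 0.83, and Serpinh1, the chaperone that folds collagen, rose by 2.77. The member that fell was Nid1, the linker between laminin and collagen networks, from 10.63, 10.59 and 10.65 to 8.67, 8.75 and 8.72 (-1.91, SE 0.04).

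Genes used as markers of fibroblasts and smooth muscle rose as well, in 13 of 15 cases with none lower (median 2.55). Their mean rlog value ranged from 3.33 to 3.45 over the ES samples and from 5.82 to 5.86 over the RA samples. Acta2, smooth muscle actin, went from 3.09, 3.15 and 3.69 to 7.84, 7.86 and 7.78 (4.52), the fibrillar collagen genes Col3a1 and Col1a1 rose by 4.08 and 2.55, and the matrix proteoglycan gene Dcn by 2.59. The fibroblast surface marker Thy1 was not called (-0.37, adjusted p = 0.0318). No member was listed at 0 in every sample. The cultures had no feeder cells by the study's methods, and the part of other cells in this rise was not tested.

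Keratins rose among the 15 trophectoderm genes that could be tested, of which 9 were higher and 2 lower (median 0.87). Krt8 was at 7.03, 6.99 and 7.06 in ES and at 10.90, 10.86 and 10.98 in RA (3.89, SE 0.05), and its partner Krt18 at 5.88, 5.77 and 5.62 against 10.74, 10.73 and 10.85. Krt19 rose by 3.00 and the transcription factor Gata3 by 2.43. The defining trophoblast factors Cdx2 and Elf5 were not called, at 0.18 (adjusted p = 0.255) and 0.05 (adjusted p = 0.522), and the signs of both turned under a different scaling. Both were at low values. The means of Cdx2 were 2.00 in ES and 2.18 in RA, and those of Elf5 were -1.78 and -1.73, where few genes could be called. Tcfap2c, a further trophoblast factor that is also active in ESCs, fell by 2.22, and Prl3d1 and Tpbpa were listed at 0 in every sample. Keratins 8 and 18 are shared by simple epithelia of many kinds. Among 19 genes of cell junctions and of epithelial and mesenchymal state, 12 rose and 3 fell (median 0.88). The tight junction gene Cldn6 rose by 3.79 and the repressor Zeb2 by 2.62. Cdh1, which encodes E-cadherin, went from 10.34, 10.39 and 10.43 to 9.82, 9.75 and 9.74 (-0.61, SE 0.04), which is small beside the rise of Cdh2, from 4.58, 4.73 and 4.77 to 8.31, 8.20 and 8.29. Fibronectin, encoded by Fn1, fell by 1.34.

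Neural progenitor genes gave a mixed picture, with 10 higher, 2 lower and 16 not called of 28 tested (median 0.22). Sox1 was not in the table, and Neurod1, Olig2 and Dbx1 were listed at 0 in every sample. Pax6, a transcription factor of neural tube and eye, was at 3.04, 3.06 and 3.10 in ES and at 5.95, 6.05 and 5.78 in RA, a difference of 2.86 (SE 0.11, adjusted p = 1.53e-10). Irx3, a patterning factor, rose by 3.33, Sox11 by 2.51 and the intermediate filament gene Nes by 1.59. Genes of differentiating neurons were divided. Stmn2, a regulator of microtubules, went from 9.82, 9.75 and 9.78 to 6.17, 6.70 and 6.41 (-3.36, SE 0.10), and the neuronal tubulin gene Tubb3 fell by 1.56. The neurofilament partner Ina, the growth cone gene Gap43 and the microtubule gene Dcx rose by 0.95, 0.73 and 0.57. After quantile normalization Gap43 (0.29, adjusted p = 0.315) and Dcx (0.38) were not called, and Dcx was not called at equal medians (0.48). Hes5, a Notch target of neural progenitors, lay between -2.26 and -2.20 in all samples.

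Of 21 testable genes of primitive streak and mesoderm, 7 rose and 5 fell (median 0.02). Genes of the Nodal branch and of the early streak were among those that fell. Nodal went from 8.59, 8.36 and 8.55 to 7.42, 7.57 and 7.56 (-0.98), and its inhibitor Lefty2 from 9.36, 9.39 and 9.34 to 7.66, 7.91 and 7.75 (-1.59). The streak factors T (-0.87) and Eomes (-0.83) fell from lower values, and Mixl1 was not called at 0.14 (adjusted p = 0.439). The rises were led by Meox1, a somite homeobox gene, which went from 3.20, 3.39 and 3.47 to 7.95, 7.80 and 7.90 (4.53, SE 0.10). Hand2, a heart and limb factor, rose by 1.90 and Kdr, the receptor of vascular growth factor, by 1.73. With genes of a mean rlog under 3 left out, 8 genes of the list remained, and 4 of them were called higher and 4 lower.

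Genes of FGF signalling moved both ways. Of 16 genes, 8 rose and 5 fell (median 0.59). Fgf4, the main autocrine FGF of ESCs, went from 9.74, 9.81 and 9.79 to 4.73, 4.99 and 4.99, while Fgfr2 went from 3.53, 4.09 and 4.18 to 8.63, 8.56 and 8.73 (4.71, SE 0.14). The transcriptional targets of the pathway were divided too. Etv5 fell from 10.29, 10.35 and 10.27 to 7.46, 7.35 and 7.39 (-2.91), the feedback inhibitor Spry4 fell by 1.63, and the phosphatase gene Dusp6 rose by 2.71. In the BMP pathway, 14 of 19 genes rose and 3 fell (median 0.95). Its target Id3, an inhibitor of basic helix-loop-helix factors, went from 6.06, 6.24 and 6.02 to 9.79, 9.73 and 9.86 (3.69, SE 0.07), Id2 rose by 3.32, Msx1 by 2.95 and Id1 by 2.15. The ligand gene Bmp4 fell by 1.61, and so did the targets Id4 (-1.26) and Smad7 (-0.55). Wnt targets gave 7 rises and 6 falls among 18 genes (median 0.12), and 4 rises and 6 falls after quantile normalization. The feedback genes Sp5 (-2.02) and Axin2 (-1.05) fell and the secreted inhibitor gene Dkk1 rose by 1.88.

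Genes of meiosis and the germline were evenly divided, with 6 of 16 higher and 6 lower (median 0.05). Rec8, the meiotic cohesin subunit, went from 4.55, 4.79 and 4.88 to 7.48, 7.48 and 7.57 (2.77), and the helicase gene Ddx4 rose by 2.10. Dazl and Sycp3 fell by 1.01 and 0.96. Of 10 testable genes of the 2-cell-like state, a rare state of ESC cultures, 8 rose and 1 fell (median 2.45). Zscan4d was at 5.20, 5.08 and 5.25 in ES and at 8.49, 8.50 and 8.52 in RA, a difference of 3.33 (SE 0.08, adjusted p = 8.96e-13). Zscan4c and Zscan4f rose by 2.88 and 2.79. These are near-identical copies that can share reads, so their separate values are uncertain. Pramel6, a further gene of the list, was the one that fell.

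Enzymes of DNA methylation moved in both directions, with 3 of 10 higher and 4 lower (median -0.05). Tet1 went from 10.48, 10.49 and 10.47 to 8.23, 8.21 and 8.16 (-2.28) and Tet2 from 10.59, 10.58 and 10.62 to 8.21, 8.42 and 8.40 (-2.25), whereas Tet3, the third oxidase of methylcytosine, rose by 1.70. The methyltransferase gene Dnmt3a rose by 1.36 and its cofactor Dnmt3l fell by 0.57. Polycomb subunits gave 8 rises and 5 falls among 22 genes (median -0.13), or 5 and 5 after quantile normalization. Of the methyltransferase complex, Eed (-1.79), Mtf2 (-1.67) and Suz12 (-1.28) fell, and the catalytic subunit Ezh2 was not called (-0.02, adjusted p = 0.84). Of the canonical complex that binds the mark, Phc2 and Cbx2 rose by 1.91 and 1.36 and Phc1 fell by 1.13.

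Among 23 cyclins, kinases and inhibitors of the cell cycle, 6 rose and 3 fell (median -0.04). These shares, 26.1% and 13%, lie near the 17.7% and 11.7% of all genes. The D-type cyclins differed. Ccnd1 went from 7.32, 7.16 and 7.31 to 5.54, 5.26 and 4.91 (-2.02), and Ccnd2 from 3.09, 3.15 and 3.21 to 7.46, 7.39 and 7.51 (4.30, SE 0.10, adjusted p = 7.27e-13), while Ccnd3 fell by 0.64. Of the kinase inhibitors, Cdkn2a and Cdkn1c rose by 2.25 and 1.96, and Cdkn1a fell from 6.08, 6.05 and 6.14 to 3.19, 3.20 and 3.67 (-2.74, SE 0.14). The mitotic cyclin gene Ccnb1 was not called (-0.18, under the limit of 0.5). In the Myc network, 3 of 11 genes rose and 3 fell (median -0.05). Mxd4, an antagonist of Myc, rose by 3.57 and Myc by 0.74. Trp53 was at 2.45, 2.78 and 2.64 in ES and at 2.19, 2.49 and 2.17 in RA (-0.34, adjusted p = 0.0664), and the groups overlapped. These are low values, and in the separately normalized heterozygous ΔPG samples the means of Trp53 were 7.05 in ES and 6.04 in RA, and those of Cdkn1a 7.49 and 6.46. Of 18 genes in the list of Trp53 and its targets, 5 rose and 4 fell (median 0.29), and 3 rose after quantile normalization. The kinase gene Plk2 rose by 3.66 and Sesn2 fell by 1.22.

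Glycolysis and glucose uptake fell as a group, with 16 of 19 genes lower, none higher and 3 not called (median -1.05). Pfkp, the platelet isoform of phosphofructokinase, went from 11.02, 11.02 and 11.03 to 7.03, 6.82 and 7.05, a difference of -4.05 (SE 0.06, adjusted p = 1.84e-14). Hk2, the hexokinase of the first step, fell by 1.99, Aldoa by 1.61 and Ldha, lactate dehydrogenase, by 1.06. Pfkm, the muscle isoform, was not called (0.15, adjusted p = 0.286), and the glucose transporter gene Slc2a1 had a difference of -0.30. Most of these genes lie at high values, where 32.6% of all genes were called lower.

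**Figure D4:**
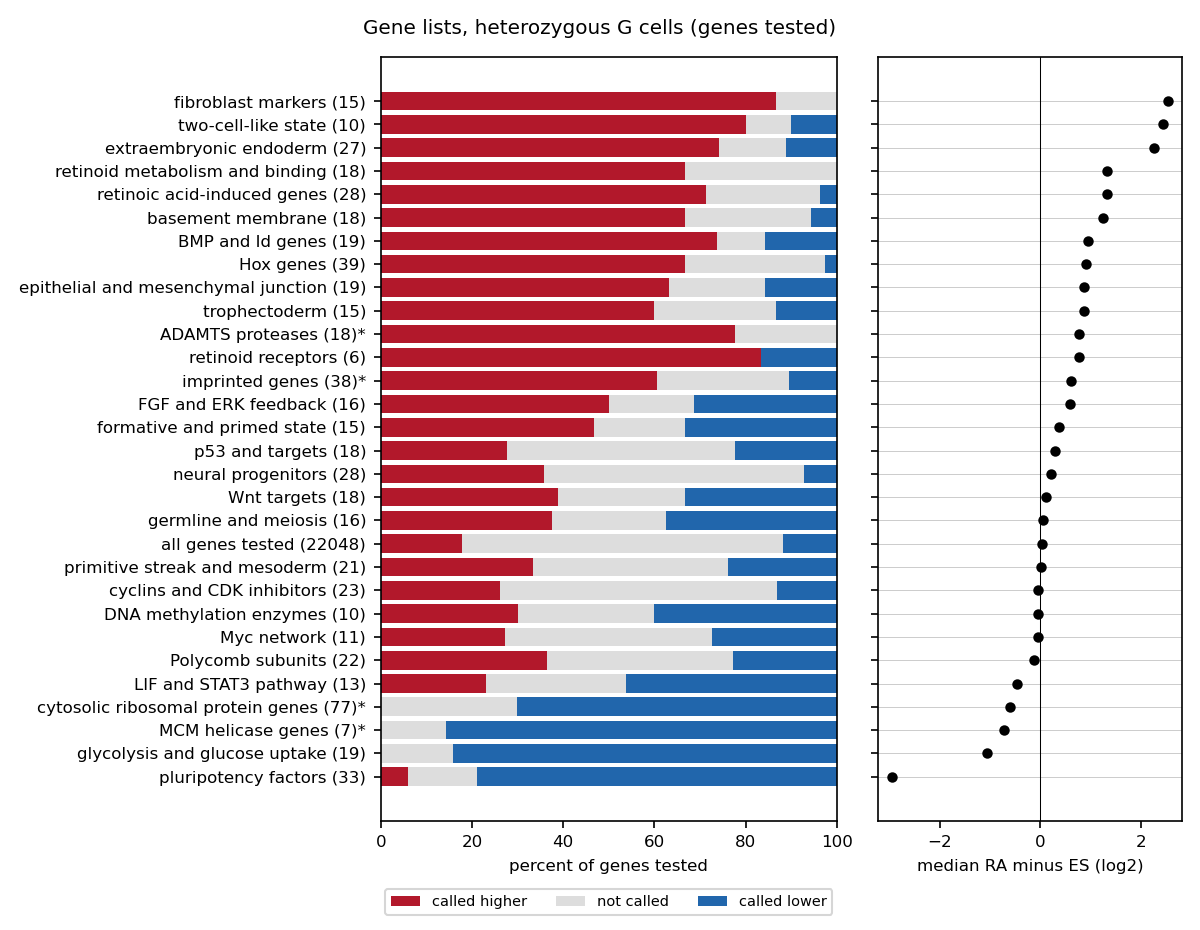
Share of the tested genes of each list that were called higher (red), lower (blue) or not called (grey) in heterozygous ΔG cells, and the median RA minus ES (log2), with the number of genes in parentheses. Lists with an asterisk were chosen after values were seen, the pluripotency factors have the lowest median (-2.95), and all genes tested have a median of 0.04.

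The homozygous ΔG line, treated and sequenced in the same way, has both alleles replaced and shares no sample with the comparison above. RA called 3759 genes higher (17%) and 2675 lower (12.1%) there. Of the 3911 rises in heterozygous cells, 3231 were also called higher in homozygous cells, which is 82.6% of the heterozygous and 86% of the homozygous rises. Of the 2588 falls, 2158 were shared (83.4% and 80.7%), and 1 gene was called in opposite directions. The difference between the 2 responses was tested as an interaction over the 12 ΔG samples. It was called for 524 genes (2.38%), 261 with a higher (1.18%) and 263 with a lower value (1.19%) in heterozygous cells, and with limits of an adjusted p under 0.05 and 1.5-fold the number was 268. The clones behind each line are not given in the sources used here, so genotype and clone cannot be told apart.

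Among the interactions with a higher value in heterozygous cells, Cubn and the collagen genes Col4a5 and Col1a2 were near the top. Collagen genes were divided, since no difference was called for Col4a1 (0.15), Col4a2 (0.34), Col1a1 (0.09) or Col3a1 (-0.06). Col4a5, a basement membrane collagen on the X chromosome, went from 2.37, 2.81 and 2.35 to 4.07, 4.14 and 4.40 in heterozygous cells (1.70), against 0.30 in homozygous cells (difference of responses 1.40). Col1a2 rose by 5.43 against 4.20 (1.22), Cubn by 6.15 against 4.97 (1.18) and the selenium carrier gene Sepp1 by 3.50 against 2.34 (1.16). Gm10800, which rose by 3.73 against 2.22 (1.51), is a short predicted gene whose copies can share reads, so its value is uncertain. In the other direction, Krt19 rose by 3.00 against 4.28 (-1.28) and A2m, a protease inhibitor gene, fell by 3.75 against 2.49 (-1.26). A2m was at 7.57, 7.69 and 7.81 in the heterozygous ES samples and at 3.79, 3.92 and 4.12 after RA. Its means in homozygous cells were 6.21 in ES and 3.72 in RA, so the lines differed before RA. Xist, the RNA that silences an X chromosome, changed by 0.44 in heterozygous cells, which was not called, and by 1.70 in homozygous cells (-1.26). Without ES replicate 1 or RA replicate 3, the heterozygous value of Xist was 0.53 or 0.52 and was called. Hist3h2ba, a histone gene, changed by -0.03 against 1.49 (-1.52). AY036118, annotated as a pseudogene, fell by 0.79 against a rise of 1.62 (-2.41), and like Gm10800 it may collect reads from copies elsewhere.

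**Figure D5:**
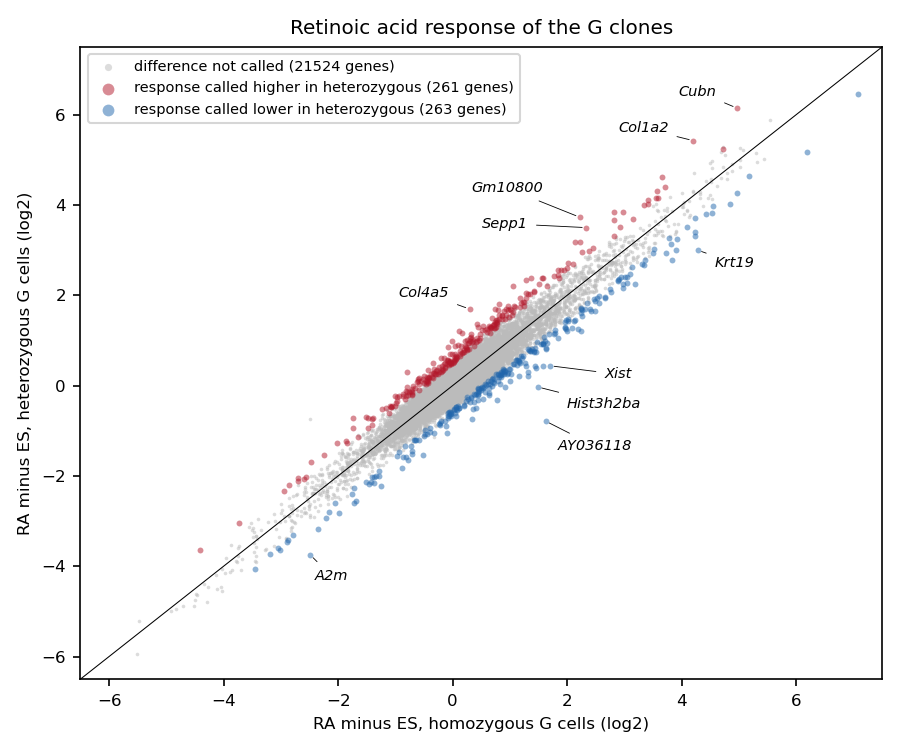
RA minus ES (log2) in heterozygous ΔG cells (vertical) against homozygous ΔG cells (horizontal), 1 point per gene over 22048 genes, with the line of equal responses. Red and blue points are the 261 and 263 genes whose difference of responses was called higher or lower in heterozygous cells, and AY036118 lies farthest from the line, at -0.79 against 1.62.

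For most of the genes that define the response, a difference between the lines was not called. Cyp26a1 rose by 5.88 in heterozygous and 5.54 in homozygous cells (adjusted p of the difference = 0.344), Hoxb1 by 3.18 and 3.36 (0.668), Gata6 by 4.06 and 4.04 (0.964). Nanog fell by 4.61 and 4.48 (0.463) and Pou5f1 by 3.81 and 3.96 (0.287). A value over the threshold does not show that the responses were equal. Rarb was an exception, with 2.41 against 3.04 (difference -0.63, SE 0.12, adjusted p = 0.00239), and so were Crabp2 (0.53, adjusted p = 0.0671) and Ccnd2 (0.72, adjusted p = 0.00726).

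In a further line, heterozygous ΔPG, gene body and promoter of 1 allele are replaced. Its values were normalized in a separate table, so they stand beside the others without a test, and 20645 genes were tested in both tables. RA called 3960 genes higher (18%) and 2987 lower (13.6%) there. Of the heterozygous ΔG rises, 73.8% were called higher in ΔPG as well, which was 72.9% of the ΔPG rises, and 7 were called lower. Of the falls, 66.5% were shared (57.6% of the ΔPG falls) and 30 were called higher. Cyp26a1 rose by 4.60 in ΔPG, Rarb by 2.72, Hoxb1 by 2.81 and Gata6 by 3.86, while Nanog fell by 4.25 and Pou5f1 by 4.01. H19 rose by 5.35 there and Col4a1 by 3.94. Of the 6 retinoid receptor genes, 2 were called higher and 1 lower in ΔPG.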

How the data were processed

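RNA libraries (TruSeq Stranded Total RNA with Ribo-Zero) were sequenced as paired ends on an Illumina HiSeq. The authors mapped reads to NCBI37/mm9 with TopHat2 (2.1.0) and GENCODE models, removed duplicates with Picard, counted reads per gene with HTSeq (0.6.0), and normalized and rlog-transformed the counts with DESeq2 (1.14.1). The deposited values are these rlog values, on the log2 scale, in separate tables for ΔG and ΔPG samples. Without counts, depth is unknown and counting error cannot be given. Of 33924 genes in the ΔG table, 11876 are at 0 in every sample and 22048 were tested.

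Samples were grouped by the labels. Dose and time come from the study's supplement. The methods call the samples of a group biological replicates without saying if cultures were separate, so p-values measure the spread between these samples. R 4.3.3 with limma 3.58.1 (lmFit, then eBayes with trend) modelled the 6 samples without a replicate block. Calls needed p under 0.1 after Benjamini-Hochberg adjustment and over 0.5 of absolute difference. The interaction used all 12 ΔG samples. On data simulated from these values, 200 genes with a mean rlog of at least 3 were changed by 1 and the others left unchanged. There the response test recovered 193 (2 false calls) and the interaction 189 (7 false calls). Smaller changes, changes in lower genes, changes in as many genes as were called here, and shifts shared by the genes of a sample were not simulated. The false calls therefore do not give the error rate of the reported calls. Alternatives of the response changed the scaling, filter, limits, block and GC trend, and left out each replicate. Those of the interaction changed the filter, limits and block, and left out each replicate. The interaction was not refitted under another scaling or without the GC trend.

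Members, gene lists and tests were chosen with earlier results of these data known. Named genes are the 15 largest rises and falls that do not overlap, members of the lists after each list's counts, the 5 largest interactions in each direction, and the genes with a repeat in the promoter window. RefSeq promoter windows are on GRCm38.p6, gene positions on NCBIM37. Figures were drawn with matplotlib 3.10.9 in Python 3.11.15. The 4C-seq, RIP-seq and capture-C-seq samples were not used here, and a few list members, counted with their lists, are not reported here by name or drawn.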

Additional observations from a re-analysis of the deposited data

Results flagged for a closer look

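Each gene here was flagged because its RA response differed between heterozygous and homozygous ΔG cells by the interaction test of limma (adjusted p under 0.1 and a difference over 0.5). Values are the response in heterozygous cells minus that in homozygous cells on the log2 scale. They were not checked under another scaling or without the GC trend.

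In retinoid genes the values were -0.63 for Rarb, 0.59 for Rxrg, 0.71 for Crabp1 and 0.53 for Crabp2, and among other RA-induced genes 0.71 for Meis2 and -0.56 for Cdx1. Among Hox genes the values were -0.66 for Hoxb13 and -0.61 for Hoxb9. Extracellular matrix and endoderm genes had values of both signs, of 1.40 for Col4a5, 1.22 for Col1a2, 1.18 for Cubn, 1.16 for Sepp1, 0.95 for Dab2, 0.71 for Adamts1, 0.67 for Pdgfra, 0.62 for Lama1, and of -0.71 for Foxa1, -0.58 for P4ha2, -0.51 for Lrp2 and -0.51 for Fn1. Since the smaller of these genes were named for their list, the signs are a description.

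Trophectoderm and epithelial genes had negative values, of -1.28 for Krt19 and -0.96 for Tcfap2c, as had the repressor Zeb2 at -0.51. Glucose genes did too, at -0.82 for Slc2a1, -0.66 for Hk2 and -0.60 for Pfkp. For Slc2a1 the difference of -0.30 in heterozygous cells stood against a called rise in homozygous cells. Ccnd1 was at -0.62 and Ccnd2 at 0.72, so both cyclins moved further in heterozygous cells. The remaining values were 1.51 for Gm10800, 0.76 for Fgf5, 0.53 for Id3, -0.60 for Tubb3, -0.60 for Eomes, -0.61 for H19, -1.02 for Pmp22, -1.26 for A2m, -1.26 for Xist, -1.52 for Hist3h2ba and -2.41 for AY036118. The mean of Hist3h2ba in ES was 3.08 in heterozygous and 6.35 in homozygous cells, and that of A2m was 7.69 and 6.21. In both genes the lines differed before RA.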

How the results depend on the processing

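Of the 183 called genes named here, 160 kept their call under every alternative that included them, out of 18 for the response. With an absolute difference over 1, 1791 genes were higher and 838 lower, and with no limit 6759 and 5253. The interaction gave 1164 calls with no limit and 268 at an adjusted p under 0.05 and 1.5-fold. Leaving out 1 replicate gave 3895 to 3954 rises, 2609 to 2624 falls and 419 to 472 interactions. Replicate numbers did not pair samples (correlations of deviations -0.007, -0.020 and -0.023), and a replicate block gave 3911 rises, 2589 falls and 548 interactions. Leaving out a replicate ended the call of Rara among the named genes. With equal sample medians there were 3333 rises and 3258 falls, and without the GC trend 2904 and 2560. Receptor gene rises fell from 5 to 2 without the GC trend, and 54 ribosomal protein falls became 5 after quantile normalization. Signs reversed only in genes that were not called. 5430416N02Rik was at -0.1992 after quantile normalization and -0.0525 at equal medians, Mid1 and Elf5 at -0.0233 and -0.0396 at equal medians, Cdx2, Ccnb1 and Ezh2 at -0.0184, 0.0543 and 0.0556 after quantile normalization, and Ezh2 at 0.0115 without the GC trend, with or without a replicate block. Without 1 replicate, Hist3h2ba ranged from -0.2263 to 0.0998, Elf5 from -0.0028 to 0.0969, Ezh2 from -0.0594 to 0.0362, Cyp26c1 from -0.0927 to 0.0664 and Hprt from -0.2304 to 0.0511. Depth is unknown, so low genes cannot be called absent. The causes were not tested.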

Other observations

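Further gene groups were taken up after values had been seen. Of 38 imprinted genes tested, 23 rose and 4 fell (median 0.61). Besides H19, Peg3 went from 9.27, 9.13 and 9.10 in ES to 13.77, 13.74 and 13.71 in RA, Peg10 rose by 4.26 and Mest by 3.97. Igf2, the growth factor gene next to H19, rose by 2.79, and Igf2r, which encodes the receptor that clears it, fell by 1.26. Maternally expressed (H19) and paternally expressed genes (Peg3, Peg10, Mest, Igf2) were among the rises. ADAMTS proteases of the matrix rose in 14 of 18 cases, with none lower (median 0.78), and Adamts1 by 4.12. With genes of a mean rlog under 3 left out, 8 ADAMTS genes remained and 6 of them were called.

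Genes of protein synthesis and DNA replication were lower. Of 77 cytosolic ribosomal protein genes, 54 fell and none rose (median -0.61). ES and RA samples did not overlap in any of the 77, against 54.5% of all genes that did not overlap, but after quantile normalization 5 were called lower and the median was -0.27. All but 1 of 7 MCM helicase genes fell (6 genes, median -0.71), among them Mcm5 from 11.71, 11.68 and 11.68 to 10.69, 10.69 and 10.61, and 3 did so after quantile normalization. Both groups lie at high values, where falls outnumbered rises over all genes.

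Hprt, singled out after its values were seen and a gene of purine salvage that most cells transcribe, lay between -0.95 and -0.38 in all 6 samples and was not called (-0.13, limma adjusted p = 0.434). Its means were -0.99 and -1.02 in heterozygous ΔPG cells. The study describes the cultured cells as D3, while its DNA FISH method names E14 cells. The identity of the line was not tested here.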
